A study of Mus musculus with 6 samples.

Results

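The genes described here are 8 genes of the supporting cell lineage of the testis, Aard, Sox9, Sox8, Dmrt1, Dhh, Fgf9, Ptgds and Cyp26b1, as measured in the ovary. They were chosen by name, with earlier results of these data known, and all 8 were found among the 25164 gene symbols of the deposited table. Whole ovaries of C57BL/6 mice at day 1 gave 6 RNA sequencing libraries. In the 3 libraries called cKO the mice carried 2 floxed copies of Hnrnpl, written hnRNPL flox/flox, and the Stra8-cre transgene, which expresses Cre recombinase in germ cells. The other 3 libraries were labelled wild type, with no floxed allele or transgene named for them. Strain, tissue and age were shared by both groups, and the protocol of every library mentions a hormone challenge of unstated kind. Nothing in the labels ties a library to an animal of its own, so p-values measure only the spread between these libraries, which may be technical.

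Supporting cells of the fetal gonad become Sertoli cells in the testis and pregranulosa cells in the ovary. In the testis SRY turns on Sox9, and SOX9 and SOX8 together with FGF9 and prostaglandin D hold the Sertoli fate, while FOXL2 and the WNT4 and RSPO1 signals hold the ovarian fate. DMRT1 maintains Sertoli cells after birth, and it is also made by germ cells of both sexes in fetal life. DHH is the hedgehog ligand of Sertoli cells, CYP26B1 degrades retinoic acid and so delays meiosis of male germ cells, and Aard encodes a small protein rich in alanine and arginine that marks Sertoli cells.

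Transcript levels are in FPKM, fragments per transcript length and sequencing depth, so levels of different genes can be compared per length. Depth, estimated from the smallest steps of FPKM, was lowest in cKO replicate 1 (7200000 fragments) and highest in wild type replicate 1 (14300000). The FPKM sum was 335667 in cKO replicate 1 and 223845 to 246121 elsewhere, and the scaling factor of that library was 1.18 against 0.949 to 0.989. Values after scaling are therefore given where they differ in call. Hnrnpl, the targeted gene, stood at 100.5, 81.5 and 85.2 FPKM in cKO against 104.1, 93.8 and 101.9 FPKM in wild type. Its groups overlapped before median-of-ratios scaling and not after it (85.5, 84.2 and 87.5 against 105.3, 95.4 and 107.4), and a log2 change of -0.17 (SE 0.13) was not called (limma adjusted p = 0.571, and 0.15 after scaling). A gene-level value does not show the floxed exons, and Hnrnpl is broadly expressed, so somatic cells of the ovary also carry the transcript. The part of either in the Hnrnpl values was not tested, nor was the extent of Cre action.

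The sex chromosome genes of all 6 libraries read as in females. Sry, the testis-determining gene of the Y chromosome, was listed at 0 in all 6 libraries, as were the Y-linked genes Ddx3y and Kdm5d. Eif2s3y was above 0 only in cKO replicate 1, at 0.0914 FPKM, and Uty only in wild type replicate 2, at 0.00741 FPKM. Xist, the RNA of the inactive X chromosome, stood at 36.7 to 63.0 FPKM in cKO against 57.5 to 62.9 FPKM in wild type. These sex chromosome genes, apart from Sry, were chosen after their values were seen. Of the ovarian fate genes, Foxl2 stood at 86.5, 64.9 and 70.0 FPKM in cKO against 57.5, 60.2 and 59.8 FPKM in wild type. Foxl2 was thus 17.4 to 24.7 times the level of Sox9 in every library.

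The members were low, with 1 exception. In wild type Aard stood at 22.1 ± 1.32 FPKM (SD, n = 3), and the next members were Cyp26b1 at 3.44 ± 0.343, Sox9 at 3.18 ± 0.291 and Ptgds at 2.73 ± 0.709 FPKM. The library values of these 3 overlapped, so their order is not resolved. Sox8 followed at 1.62 ± 0.264 FPKM, Fgf9 at 0.750 ± 0.309 and Dhh at 0.363 ± 0.0983 FPKM, and Dmrt1 was lowest. Over all 6 libraries Aard stood above the others by a wide gap, since its lowest library value was 20.6 FPKM and the highest of any other member 3.78 FPKM. Only 1190 of all genes had a higher mean than Aard, whereas 9492 had a higher mean than Sox9.

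**Figure D1:**
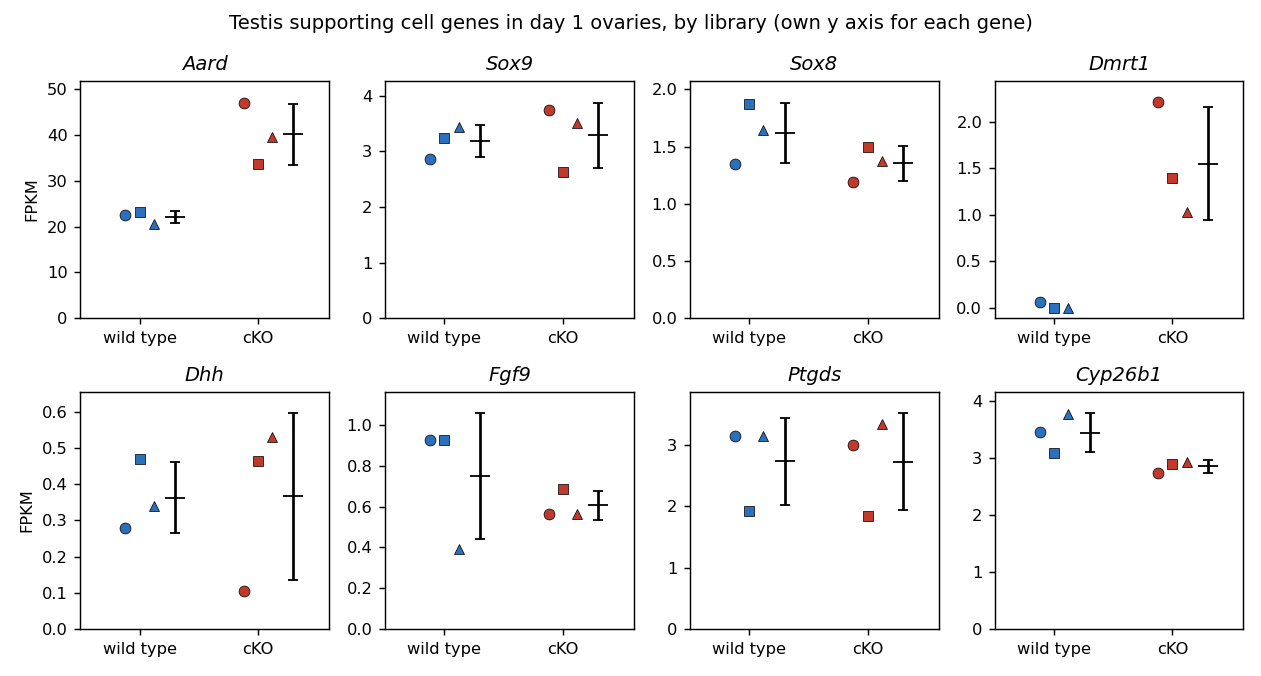
FPKM of the 8 genes in each library, with wild type in blue and cKO in red, circles, squares and triangles for replicates 1, 2 and 3, and a bar for the mean with its SD in groups with no library at 0 (n = 3; own y axis for each gene). Aard at 33.8 to 47.1 FPKM in cKO and Dmrt1 at 1.03 to 2.21 FPKM lie above all wild type libraries, Cyp26b1 lies below them, and the other 5 genes overlap.

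Aard and Dmrt1 were the members with higher cKO values that did not overlap wild type, Cyp26b1 had lower ones, and Sox9, Sox8, Dhh, Fgf9 and Ptgds overlapped. Where the mean over the 6 libraries reached 1 FPKM, a gene was tested with limma on log2(FPKM + 1), a scale that understates the change of low genes. The test took in Aard, Sox9, Sox8, Ptgds and Cyp26b1, and it left out Dmrt1, Fgf9 and Dhh as too low. None of the 5 was called at an adjusted p under 0.05, where 15 of 12442 tested genes were (6 higher and 9 lower), or 0.121%. At an unadjusted p under 0.05 Aard was the only one of the 5, where 14.2% of all tested genes were. After median-of-ratios scaling of the libraries 1 of the 5 was called, Aard, against 1.29% of all tested genes (95 higher and 66 lower). Groups that do not overlap are common in these libraries, at 22.6% of tested genes, split into 15.5% higher and 7.03% lower in cKO, so a lack of overlap alone does not set a member apart. The median log2 fold change of the 5 tested members was -0.01, and that of all tested genes was 0.08.

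Aard stood at 47.1, 33.8 and 39.5 FPKM in cKO against 22.6, 23.1 and 20.6 FPKM in wild type. Every cKO library was above every wild type library, with the largest value in cKO replicate 1. These values rest on about 260 to 549 estimated fragments a library, so counting error is small beside the gap. The mean was 40.1 ± 6.67 FPKM in cKO, 1.82 times the wild type mean, with a log2 fold change of 0.82 (SE 0.14, 95% confidence interval 0.50 to 1.14). That change missed the threshold over all genes (limma adjusted p = 0.0752; exact two-sided permutation p = 0.1, the smallest that 3 against 3 libraries allow). Of all tested genes 1.11% had a larger positive change.

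Whether Aard was called depended on the settings, among them how libraries were put on one scale. After median-of-ratios scaling its levels were 40.0, 34.9 and 40.6 in cKO against 22.9, 23.5 and 21.7 in wild type. The cKO replicates then lay closer together, and the change of 0.74 (SE 0.083) passed (limma adjusted p = 0.0131). Over all alternatives its log2 fold change stayed between 0.62 and 0.94, and its adjusted p ran from 0.012 to 0.317. With each library corrected for transcript length and GC content the change was 0.66 and passed (limma adjusted p = 0.0159), as 2.19% of tested genes did. Without cKO replicate 1 it was 0.70 and passed (limma adjusted p = 0.0466), as did 0.717% of tested genes.

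Within a library, Aard was 0.544, 0.520 and 0.564 times the level of Foxl2 in cKO and 0.393, 0.384 and 0.345 times in wild type. The ratio does not depend on library scaling, and its groups did not overlap. Summed over 18 ovary supporting cell genes, which include Foxl2, FPKM came to 602 to 748 in cKO and 572 to 586 in wild type. These sums are before scaling, and the scaling factor of cKO replicate 1 was 1.18. The median log2 fold change of the 18 genes was 0.01 before median-of-ratios scaling and -0.07 after it. In whole ovaries, more cells of a type and more RNA per cell cannot be told apart, and the part of cell composition in the Aard difference was not tested.

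Aard lies on chromosome 15 from 52040107 to 52045722 (RefSeq, GRCm38.p6). The nearest protein-coding genes of the table are Rad21, a cohesin subunit 46.6 kb away, and Slc30a8, a zinc transporter of pancreatic islets 249.8 kb away. Rad21 stood at 35.5, 28.5 and 28.0 FPKM in cKO against 27.5, 30.2 and 29.6 FPKM in wild type, with overlapping groups. Slc30a8 was listed at 0 in all libraries. None of the 50-base stretches of the Aard transcript occurs in a transcript of another gene, so its reads have no second annotated source at that length.

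Dmrt1 stood at 2.21, 1.39 and 1.03 FPKM in the cKO libraries. In wild type it was at 0.0673 FPKM in replicate 1 and listed at 0 in replicates 2 and 3. In estimated fragments these are about 34, 32 and 27 in cKO and about 2 in wild type replicate 1, so the gene was near the limit of detection in wild type and clearly read in each cKO library. An exact 0 need not mean absence in this table, since the ribosomal RNA precursor Rn45s is listed at 0 in replicate 2 of both groups. The difference of the group means was 1.29 on the log2(FPKM + 1) scale (exact two-sided permutation p = 0.1).

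Its mean of 0.784 FPKM over all libraries kept Dmrt1 below the filter, and it was tested only where the filter was dropped. With no filter it was not called (limma adjusted p = 0.106), and 0.0248% of 20166 genes were. With no filter and median-of-ratios scaling, a combination chosen after seeing the data, the change was 1.25 and was called (limma adjusted p = 0.0438), against 0.238% of 20166 genes. Of these 20166 genes 11.6% had cKO values entirely above wild type.

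Germ cell markers were read beside Dmrt1. Of 8 markers, 3 had cKO values above all wild type values, as 15.5% of all tested genes had, and the other 5 overlapped. Over the 8 markers 6 changes were positive and 2 negative, and none was called before scaling. Their summed FPKM came to 164 to 294 in cKO and 135 to 154 in wild type. Dazl, an RNA-binding protein of germ cells, stood at 39.0, 27.6 and 16.8 FPKM in cKO against 9.65, 12.0 and 9.34 FPKM in wild type. Within cKO, Dmrt1 was highest in replicate 1 and lowest in replicate 3, as Dazl and each of the other germ cell markers were. Replicate 1 of cKO was also the library with the largest scaling factor (1.18). Ddx4, a helicase that marks germ cells, overlapped, at 6.53, 4.34 and 3.53 FPKM in cKO against 4.49, 5.69 and 4.72 FPKM in wild type. Relative to Dazl in the same library, Dmrt1 stood at 0.0567, 0.0504 and 0.0614 in cKO and at 0.00698 in wild type replicate 1. In wild type replicates 2 and 3, where Dmrt1 was listed at 0, the ratio was 0. The value of wild type replicate 1 rests on about 2 estimated Dmrt1 fragments. The part of germ cell number in the Dmrt1 difference was not tested. After scaling 2 markers were called higher, Dazl and Kit, the receptor of KIT ligand (limma adjusted p = 0.043 and 0.0223). Of all tested genes 1.29% were called after this scaling, in either direction.

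**Figure D2:**
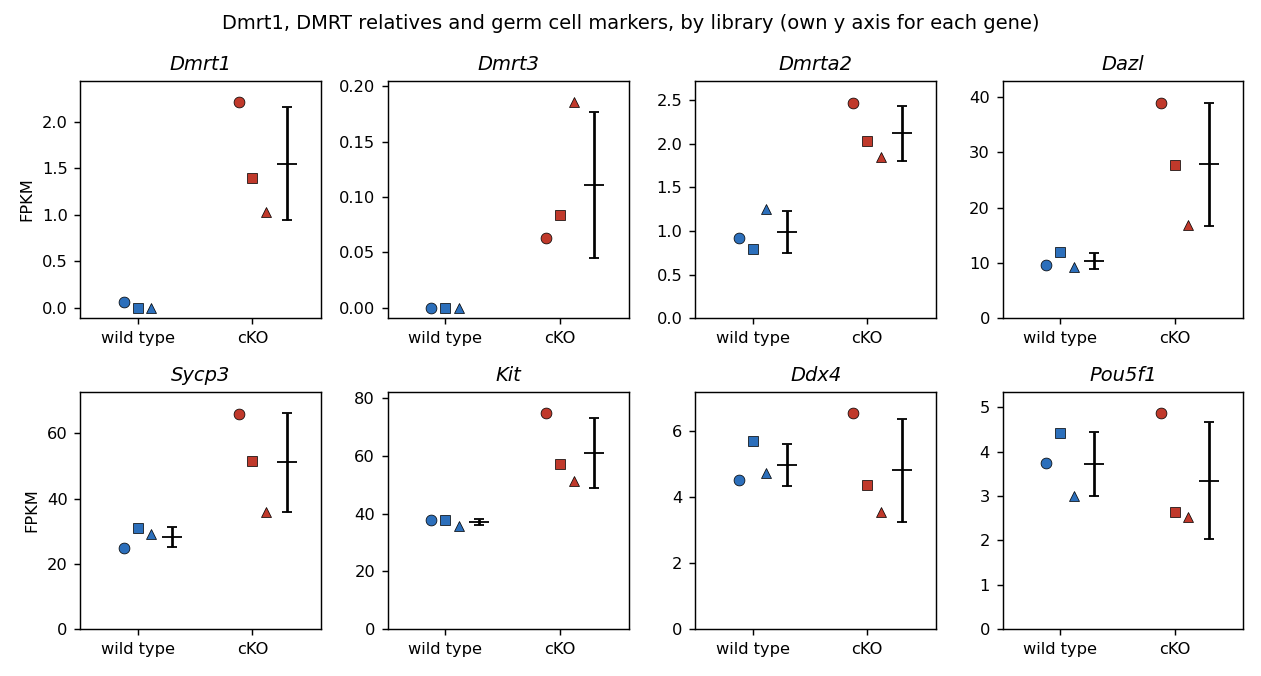
FPKM of Dmrt1, Dmrt3, Dmrta2 and 5 germ cell markers in each library, with colours, symbols and bars (mean and SD, n = 3, in groups with no library at 0) as for the 8 genes and an own y axis for each gene. Dmrt1, Dmrt3, Dmrta2, Dazl, Sycp3 and Kit lie above all wild type libraries in cKO, while Ddx4 and Pou5f1 overlap.

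Of the relatives of Dmrt1, Dmrta1 was the most abundant, at 15.1, 14.0 and 15.7 FPKM in cKO against 14.2, 17.5 and 16.2 FPKM in wild type, with overlapping groups. Dmrt3, a transcription factor gene that starts 5.9 kb beyond the end of Dmrt1 on chromosome 19, stood at 0.0629, 0.0842 and 0.186 FPKM in cKO and was listed at 0 in all wild type libraries. That is about 1, 2 and 5 estimated fragments, so its groups differ by a handful of fragments. Dmrta2, on chromosome 4, stood at 2.47, 2.03 and 1.85 FPKM in cKO against 0.913, 0.794 and 1.25 FPKM in wild type. Its groups did not overlap, and its log2 fold change of 0.65 with SE 0.16 did not pass (limma adjusted p = 0.166). Kank1, the neighbour of Dmrt1 on the other side at 71.1 kb, stood at 9.02, 8.46 and 10.3 FPKM in cKO against 7.90, 7.30 and 8.48 FPKM in wild type, with overlapping groups. Of 9 tested SOX and DMRT relatives 0 were called, before or after scaling, and 1 had an unadjusted p under 0.05, Dmrta2. Such a p was found in 14.2% of all tested genes.

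The DMRT genes share the DM domain, a DNA-binding zinc module, and the next lines show 60 coding bases centred on the longest run that Dmrt1 shares with one of these relatives. It is given because a read from a relative could in principle be counted for Dmrt1. Capitals mark bases identical in all 4 genes, on the coding strand from 5′ to 3′ (GENCODE M21, GRCm38).
Dmrt1: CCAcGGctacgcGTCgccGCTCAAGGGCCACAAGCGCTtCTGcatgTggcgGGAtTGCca
Dmrt3: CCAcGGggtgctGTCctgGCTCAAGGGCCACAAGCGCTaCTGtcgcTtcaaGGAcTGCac
Dmrta1: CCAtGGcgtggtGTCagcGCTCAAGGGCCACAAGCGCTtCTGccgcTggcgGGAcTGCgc
Dmrta2: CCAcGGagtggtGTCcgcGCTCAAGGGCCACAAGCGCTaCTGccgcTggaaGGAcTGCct

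The Dmrt1 window is at chr19:25506090-25506149 on the plus strand. All 4 genes had the same base at 38 of 60 positions, and the longest run that Dmrt1 shared with any of the 3 relatives was 26 bases, with Dmrta1. No 50-base stretch of the Dmrt1 transcript occurs in a transcript of another gene. The Dmrt1 gene spans 25505618 to 25604328 on chromosome 19.

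Sox9, the transcription factor that drives Sertoli cell formation, stood at 3.74, 2.63 and 3.51 FPKM in cKO against 2.87, 3.24 and 3.44 FPKM in wild type. The groups overlapped, with the highest and the lowest library both in cKO. The log2 fold change was 0.03 with a 95% confidence interval of -0.28 to 0.34 (SE 0.14, limma adjusted p = 0.929), so changes between 0.823 and 1.27-fold on the FPKM + 1 scale lie within it. The sign turned with the scaling, to -0.04 after median-of-ratios scaling. Sox8, its close relative with overlapping roles in Sertoli cells, stood at 1.19, 1.49 and 1.38 FPKM in cKO against 1.35, 1.87 and 1.65 FPKM in wild type. Here the groups also overlapped, and the log2 fold change was -0.15 (SE 0.15, 95% confidence interval -0.50 to 0.19, limma adjusted p = 0.647). Sox10, the remaining gene of the same SOX subgroup and a marker of Schwann cells, was at 0.295 to 0.385 FPKM in cKO against 0.360 to 0.431 FPKM in wild type. Sox9 was 1.73 to 3.15 times the level of Sox8 over the 6 libraries.

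The next window is centred on the longest run of coding bases that Sox9 shares with Sox8 or Sox10, just ahead of the HMG box that binds DNA, and is shown because shared bases bear on which gene a read is counted for. Capitals mark bases identical in all 3 genes, on the coding strand from 5′ to 3′.
Sox9: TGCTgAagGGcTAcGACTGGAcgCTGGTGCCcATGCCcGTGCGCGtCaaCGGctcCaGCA
Sox8: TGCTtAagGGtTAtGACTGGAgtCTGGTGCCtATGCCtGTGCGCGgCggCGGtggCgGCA
Sox10: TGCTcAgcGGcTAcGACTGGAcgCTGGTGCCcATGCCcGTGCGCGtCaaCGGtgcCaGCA

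The Sox9 window is at chr11:112782823-112782882 on the plus strand and the Sox8 window at chr17:25570249-25570308 on the minus strand. Over these 60 bases Sox8 matched Sox9 at 76.7% and Sox10 matched it at 91.7%. The longest run shared with Sox9 was 23 bases for Sox8 and 44 bases for Sox10, and no 50-base stretch of the Sox9 transcript occurs in another gene. In Sox8, 9.49% of the 50-base stretches also occur in 2810468N07Rik, an overlapping locus, so its level is less certain. Sox9 spans 112782210 to 112787757 on chromosome 11, and Sox8 spans 25565893 to 25570686 on chromosome 17.

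Cyp26b1, which breaks down retinoic acid, stood at 2.73, 2.90 and 2.94 FPKM in cKO against 3.45, 3.09 and 3.78 FPKM in wild type. All cKO libraries were below all wild type libraries. The difference was small, a log2 fold change of -0.20 (SE 0.11, 95% confidence interval -0.46 to 0.05), and did not pass (limma adjusted p = 0.437; adjusted p from 0.265 to 0.764 over all alternatives). Of all tested genes 7.03% had cKO values entirely below wild type. The gene lies on chromosome 6 from 84571414 to 84593908, and its neighbour Exoc6b, an exocyst subunit 24.6 kb away, stood at 12.8 FPKM in both groups.

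Other genes of retinoic acid metabolism and response were read beside it. Of 12 tested genes 0 were called before or after scaling, and 3 had an unadjusted p under 0.05, as 14.2% of all tested genes had, all with positive changes. Rec8, a meiotic cohesin subunit, stood at 13.1, 10.4 and 9.60 FPKM in cKO against 7.19, 6.30 and 7.50 FPKM in wild type, for a log2 fold change of 0.58 with SE 0.13 (limma adjusted p = 0.145). Crabp1, a retinoic acid binding protein, had one of 0.47 (limma adjusted p = 0.252) and Dhrs3, a retinaldehyde reductase, one of 0.25 (limma adjusted p = 0.324). Rec8 passed after quantile normalization (limma adjusted p = 0.0449), as did Aldh1a2, a retinoic acid synthase. Under that normalization 236 of 12442 tested genes were called, in either direction. Aldh1a2 stood at 45.5, 32.7 and 33.9 FPKM in cKO against 43.2, 45.0 and 43.1 FPKM in wild type, with overlapping groups before scaling. The other CYP26 enzymes were near 0, with Cyp26a1 at 0 to 0.102 FPKM in cKO against 0.130 to 0.168 FPKM in wild type, about 3 fragments or fewer in every library. Stra8, the retinoic acid target whose promoter drives the Cre transgene, was listed at 0 in all 6 libraries.

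Dhh, the hedgehog ligand, stood at 0.103, 0.464 and 0.531 FPKM in cKO against 0.279, 0.471 and 0.339 FPKM in wild type. These levels amount to about 3 to 26 estimated fragments a library, and the lowest and the highest value were both in cKO. The group means were 0.366 ± 0.230 and 0.363 ± 0.0983 FPKM (SD, n = 3), with an exact two-sided permutation p of 0.9. Of the 50-base stretches of its longest transcript 23.0% also occur in transcripts of Rhebl1 or Gm49442, so part of this low level cannot be assigned. The other hedgehog ligands Ihh and Shh reached at most 0.166 FPKM in any library. Of the markers of Schwann cells, which also make DHH, Sox10 is given above and S100b was at 0.186 to 0.685 FPKM over the 6 libraries.

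Receivers of the hedgehog signal were more abundant than the ligand, with the receptor Ptch1 at a mean of 12.3 FPKM in the cKO group and 13.5 FPKM in the wild type group. None of 12 tested genes of the pathway was called before or after scaling, 4 had an unadjusted p under 0.05, and those 4 had negative changes. Over all tested genes 14.2% had such a p. Gli1, a transcription factor and target gene of the pathway, stood at 3.13, 2.75 and 2.61 FPKM in cKO against 3.87, 4.04 and 4.89 FPKM in wild type. Its log2 fold change was -0.46 with SE 0.12 (limma adjusted p = 0.188). Cdon, a co-receptor, had a change of -0.44 (limma adjusted p = 0.139), Gli2 one of -0.34 and Gli3 one of -0.27. The median over the 12 was -0.11, against 0.08 for all tested genes. None of 6 stroma markers was called before scaling and 1 was after it, Nr2f2, where 1.29% of all tested genes were. All 6 had negative changes, and their summed FPKM was 591 to 657 in cKO and 783 to 806 in wild type, with none at 0. The part of stromal cells in the hedgehog gene values was not tested. Cdon alone passed once lengths and GC content were corrected for, an alternative added after the data were seen (limma adjusted p = 0.0441). That correction called 2.19% of all tested genes, in either direction.

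**Figure D3:**
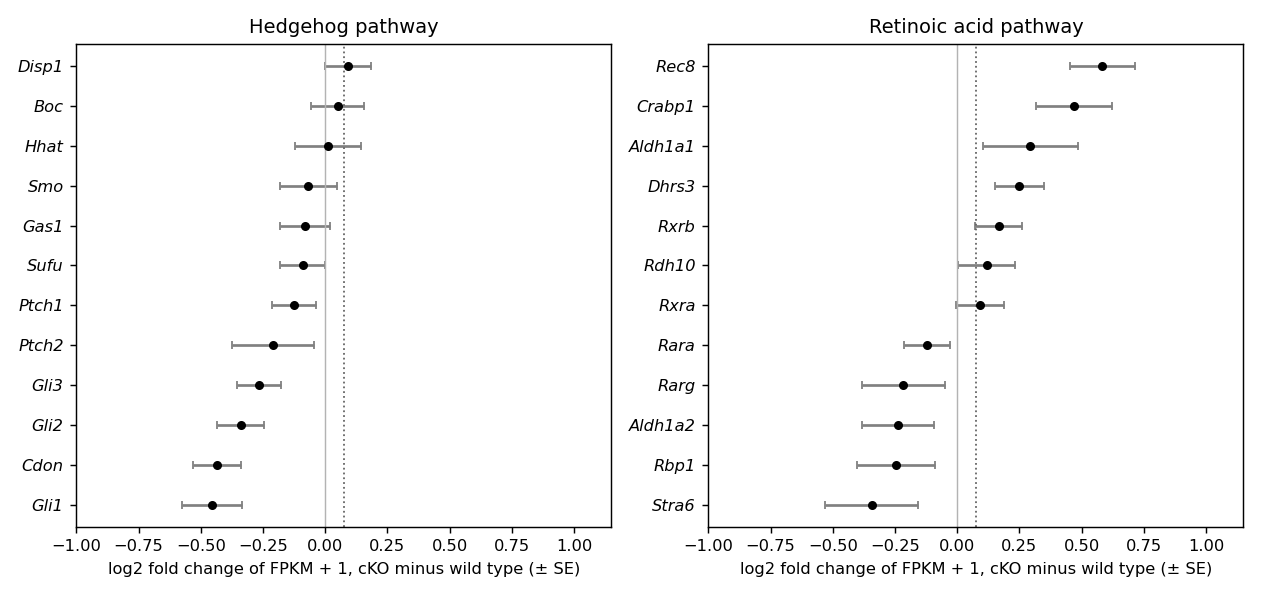
Log2 fold change of FPKM + 1, cKO minus wild type, with its SE, for the tested genes of the hedgehog pathway (left, 12 genes) and of the retinoic acid pathway (right, 12 genes). The solid line is at 0 and the dotted line at 0.08, the median of all tested genes. Gli1 at -0.46 and Rec8 at 0.58 lie at the ends, and no gene shown passed the test.

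Fgf9, the growth factor that sustains Sox9 in the testis, stood at 0.566, 0.689 and 0.565 FPKM in cKO against 0.928, 0.928 and 0.393 FPKM in wild type. Wild type replicate 3 was the lowest of all libraries, so the groups overlapped, with an exact two-sided permutation p of 0.4. Its receptor Fgfr2 was much higher, at 19.9, 18.4 and 20.5 FPKM in cKO against 22.0, 20.7 and 21.7 FPKM in wild type. In the FGF pathway 0 of 14 tested genes were called before or after scaling, and none had an unadjusted p under 0.05. The smallest p belonged to Spry2, a feedback inhibitor of FGF receptors, with a log2 fold change of -0.20 (limma adjusted p = 0.424). Fgf9 lies on chromosome 14 from 58070671 to 58112854.

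Ptgds, which makes prostaglandin D2, stood at 2.99, 1.83 and 3.34 FPKM in cKO against 3.14, 1.92 and 3.15 FPKM in wild type. Each group held 2 higher libraries and 1 lower library, and the means were alike at 2.72 ± 0.790 and 2.73 ± 0.709 FPKM (SD, n = 3). The log2 fold change was -0.01, with a wide 95% confidence interval of -0.49 to 0.47 (SE 0.21, limma adjusted p = 0.984). About 14 to 32 estimated fragments lie behind each value, and replicate 2 was the low library in both groups. The haematopoietic prostaglandin D synthase Hpgds was at 0.322 to 1.08 FPKM over the 6 libraries, and the receptor Ptgdr was listed at 0 in all of them. Hpgd, which inactivates prostaglandins, stood at 1.71, 2.34 and 3.08 FPKM in cKO against 3.14, 5.19 and 3.27 FPKM in wild type. Its groups just failed to overlap, and it did not pass (limma adjusted p = 0.321). Of 4 tested genes of this pathway 0 were called before or after scaling. Hpgd was the 1 with an unadjusted p under 0.05, where 14.2% of all tested genes had one. Ptgds lies on chromosome 2 from 25466709 to 25470110.

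Of 22 further Sertoli cell genes, 16 were high enough to test, and many of these are also made by ovarian cells. None was called before or after median-of-ratios scaling, and 4 had an unadjusted p under 0.05 (14.2% of all tested genes had), all with positive changes. Serpine2, a protease inhibitor with a change of -0.24 that did not pass, was called lower with the length and GC correction. That correction called 2.19% of all tested genes, in either direction. Mro, a nuclear protein gene of the male gonad, stood at 7.56, 6.87 and 6.37 FPKM in cKO against 4.67, 4.24 and 4.99 FPKM in wild type, for a log2 fold change of 0.49 with SE 0.10 (limma adjusted p = 0.131). Tesc, a calcium-binding protein, had one of 0.53 (limma adjusted p = 0.243), Cst9, a cystatin, one of 0.69 (limma adjusted p = 0.274) and Clu, the secreted chaperone clusterin, one of 0.46 (limma adjusted p = 0.289). Amh, the hormone that removes the Müllerian duct in males, overlapped, at 2.45, 1.21 and 1.88 FPKM in cKO against 1.86, 1.62 and 2.12 FPKM in wild type. Over the 16 genes 12 changes were positive and 4 negative, with a median of 0.27. After median-of-ratios scaling 10 were positive and the median was 0.20, and after TPM rescaling 0.11 where the median of all genes was -0.10.

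On the ovarian side of the same lineage, 18 ovary supporting cell genes were all tested, and 0 were called before scaling. Among them 4 had an unadjusted p under 0.05, where 14.2% of all tested genes did. Changes were positive in 11 and negative in 7 (median 0.01). Foxl2 had a log2 fold change of 0.30 with SE 0.14 (limma adjusted p = 0.367), with every cKO library above every wild type library. Kitl, the KIT ligand of pregranulosa cells, and Bmp2, a growth factor, had changes of 0.36 and 0.28 that did not pass. Rspo1, the WNT enhancer of ovary formation, stood at 17.2, 14.3 and 13.8 FPKM in cKO against 21.2, 20.1 and 18.8 FPKM in wild type. It was not called before scaling (limma adjusted p = 0.213) and fell by 0.48 after it (limma adjusted p = 0.0253), as did Nr2f2, a nuclear receptor of stromal cells, by 0.49 (limma adjusted p = 0.0419). Surface epithelium markers, a site of Rspo1 expression, had negative changes in 6 of 6, of which 1 was called before scaling and 3 after it. Of all tested genes 0.121% were called before scaling and 1.29% after it. None of these markers was at 0, and they summed to 152 to 190 FPKM in cKO against 218 to 237 FPKM in wild type. Their part in the Rspo1 value was not tested.

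**Figure D4:**
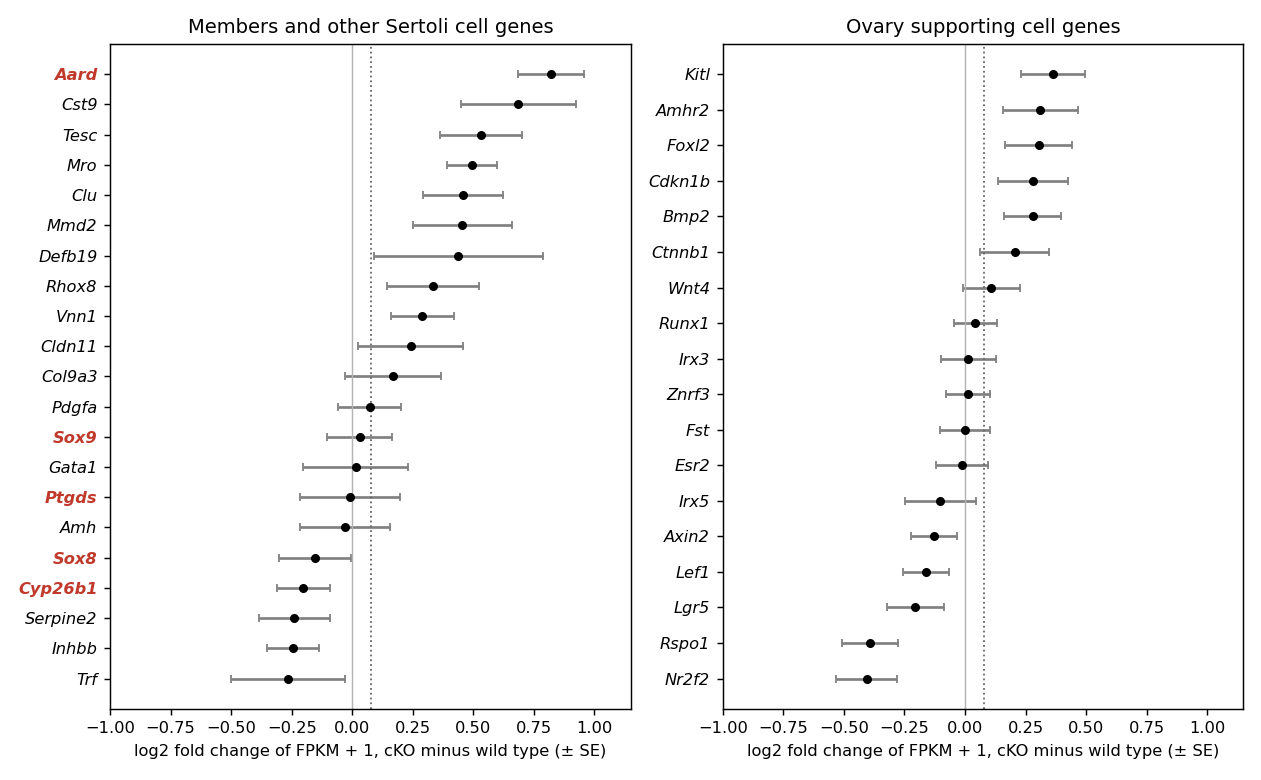
Log2 fold change of FPKM + 1, cKO minus wild type, with its SE, for the 5 tested members (red names) among 16 other Sertoli cell genes (left) and for 18 ovary supporting cell genes (right). The solid line is at 0 and the dotted line at 0.08, the median of all tested genes. Aard at 0.82 is the highest point, and none of the genes shown passed the test in the fit drawn here. Some of the alternative settings called genes shown here, Aard among them.

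Of 13 tested factors of the bipotential gonad that act upstream of Sox9, 0 were called before scaling. An unadjusted p under 0.05 was found for 1, Lhx9, a LIM homeobox factor of the gonadal surface, and for 14.2% of all tested genes. Lhx9 stood at 10.7, 9.79 and 10.1 FPKM in cKO against 15.5, 16.1 and 15.7 FPKM in wild type, for a log2 fold change of -0.58 with SE 0.089 (limma adjusted p = 0.0645). After scaling it fell by 0.66 (limma adjusted p = 0.0144). Wt1, a zinc finger factor needed for Sertoli cells and also a surface epithelium gene, had a change of -0.25 (limma adjusted p = 0.393).

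Markers of other tissues that can express these genes were read as well. Of cartilage markers, where Sox9 is high, Col2a1 was at or below 0.134 FPKM and Col9a1 was listed at 0 in every library, while Col11a1, a minor collagen, had a mean of 1.22 FPKM in the cKO group and 1.86 FPKM in the wild type group, which did not overlap (limma adjusted p = 0.303). Of markers of mesonephric tubules and rete, Pax2 and Lhx1 were at or below 0.0922 FPKM, Cdh16 was listed at 0 in cKO and at 0.208 to 0.282 FPKM in wild type, and Pax8 stood at 1.17, 0.351 and 0.621 FPKM in cKO against 1.70, 1.50 and 1.26 FPKM in wild type. Of the 5 tested markers on this list 4 had negative changes and 1, Epcam, a positive one. Epcam stood at 19.7, 15.4 and 13.6 FPKM in cKO against 11.9, 12.3 and 13.0 FPKM in wild type (limma adjusted p = 0.328). The 8 markers on this list, most of the sum being keratins, came to 129 to 202 FPKM in cKO against 188 to 201 FPKM in wild type. Of 6 markers of Leydig and theca cells, Cyp11a1, the first enzyme of steroid synthesis, stood at 3.12, 2.66 and 2.56 FPKM in cKO against 1.72, 1.65 and 1.87 FPKM in wild type (limma adjusted p = 0.190). The other 2 tested markers of these cells, Star and Hsd3b1, had negative changes of -0.20 and -0.05 with overlapping groups, and the 6 markers summed to 59.9 to 76.8 FPKM in cKO and 62.3 to 72.8 FPKM in wild type.

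The genes whose values ran most like each tested member were found by Pearson's r of log2(FPKM + 1) over the 6 libraries among 11970 genes. With so few libraries, high values of r arise readily, and they are given as a description. Fam8a1 (r = 0.995) and Cspg5 (r = 0.992) were nearest to Aard. Cspg5, a chondroitin sulfate proteoglycan gene, stood at 7.30, 4.85 and 5.24 FPKM in cKO against 3.05, 3.13 and 2.56 FPKM in wild type, so it split the groups as Aard did. Nearest to the others were Frmd8 and Mir703 for Sox9, Ppp1r3f and Gins1 for Sox8, Cerk and Pank4 for Ptgds, and Pom121 and Msln for Cyp26b1, with r from 0.964 to 0.995. Msln, a marker of the surface epithelium, stood at 1.19, 1.58 and 1.29 FPKM in cKO against 2.55, 1.83 and 3.08 FPKM in wild type, and the part of that epithelium in the Cyp26b1 values was not tested.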

How the data were processed

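The authors deposited 1 table of FPKM values with a column for each library, named after the sample titles. The submitters' processing notes name STAR 2.7.11a, HISAT2 2.2.1, featureCounts 2.0.6 and the mm10 build without roles; the program behind FPKM and the annotation are not given in the sources used here. Groups follow the sample titles. FPKM of at least 1 on average were taken to log2(FPKM + 1) and compared with limma 3.58.1 in R 4.3.3 (intensity trend, two-sided, Benjamini-Hochberg over 12442 genes). For median-of-ratios scaling a library was divided by its median ratio to the geometric mean of all libraries. Depth was estimated from whole-fragment steps of FPKM in 2437 single-transcript genes of at least 1500 bp, assuming 200 bp fragments; 70.0% to 75.8% of low values lay within 0.1 of a whole number. Fragment numbers are therefore approximate. Alternatives were a pseudocount of 0.1, no filter, a filter at 5 FPKM, other scalings, no trend, a replicate block, library weights and the removal of single libraries. The steps were tested on simulated data. Members and gene lists were chosen with earlier results of these data known. Named list genes are the 2 to 4 with the smallest p in each list, with Amh, Ddx4, Dmrt3, Dmrta1, Serpine2, Aldh1a2, Kank1, Hpgds, Col2a1, Pou5f1, S100b, Rn45s, the sex chromosome genes and other genes at or near 0 chosen after their values were seen.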

Additional observations from a re-analysis of the deposited data

How the results depend on the processing

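The number of genes called moved with every alternative: from 15 to 5 with no filter, 23 with a filter at 5 FPKM, 34 with a pseudocount of 0.1, 161 after median-of-ratios scaling, 236 after quantile normalization, 117 after TPM rescaling, 5 without the trend, 172 with library weights and 272 with the length and GC correction. It was 48 with median-of-ratios scaling and no filter, and between 2 and 89 when 1 library was left out. With the replicate block 2 genes were called. Same-numbered libraries deviated with r = -0.011, 0.039 and 0.068, and differently numbered ones with r from -0.066 to 0.028. All these values were small, and whether the numbers pair the samples was not tested. Aard passed under 7 alternatives and missed the threshold under 10. Its log2 fold change was 0.74 after median-of-ratios scaling with or without the filter, 0.69 after quantile normalization, 0.62 after TPM rescaling, 0.72 with library weights and 0.66 with the length and GC correction, all called, and 0.70 to 0.94 with 1 library left out, called only without cKO replicate 1. The members called thus numbered 1 under these settings (0 or 1 with a library left out) and 2, Aard and Dmrt1, with median-of-ratios scaling and no filter. The cause was not tested. The median of the tested members was -0.16 after TPM rescaling, -0.14 with the length and GC correction, -0.13 to 0.15 with a library left out, and 0.82 with a filter at 5 FPKM, which leaves only Aard. TPM rescaling lowered the median of all genes from 0.08 to -0.10. Of the pathway list genes 0 were called at first, 1 with a filter at 5 FPKM, 3 after median-of-ratios scaling, 3 after TPM rescaling, 3 with library weights, 5 after quantile normalization, 7 with the length and GC correction (Serpine2, Rspo1, Rec8, Nr2f2, Lhx9, Cdon and Aldh1a2), 2 with scaling and no filter, and 0 to 1 with a library left out. No alternative called Sox9, Sox8, Ptgds, Cyp26b1, Dhh, Fgf9 or Hnrnpl where it was tested. Low depth limits Dhh, Fgf9, Ptgds and Dmrt1.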

Other observations

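Markers of cells outside the supporting lineage were read in the same libraries. Of 6 surface epithelium markers, Upk1b, a uroplakin, was called lower in cKO, with a log2 fold change of -1.47 (limma adjusted p = 0.0428). After median-of-ratios scaling Upk3b, another uroplakin, and Krt19, a keratin, were called lower too (limma adjusted p = 0.0131 and 0.043). Of all tested genes 0.121% were called before this scaling and 1.29% after it. All 5 endothelial markers had negative changes, none called, and their summed FPKM was 53.9 to 65.3 in cKO and 67.0 to 82.9 in wild type. Macrophage markers summed to 7.28 to 10.1 FPKM in cKO and to 7.61 to 13.1 FPKM in wild type, with overlapping ranges.

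Among neighbours of the members, Kcnj2, a potassium channel gene across the gene desert from Sox9, stood at 0.639, 0.304 and 0.394 FPKM in cKO against 0.821, 1.45 and 0.750 FPKM in wild type, below the level tested. Lmf1, 8.5 kb from Sox8, and Micu2, 71.4 kb from Fgf9, overlapped between groups.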
